A study of Mus musculus with 12 samples.

Results

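Adhesive and matricellular glycoproteins of the extracellular matrix were followed in 10T1/2 mesenchymal progenitors on collagen with and without bound aortic carboxypeptidase-like protein (ACLP). The group held 9 genes, taken by symbol from the 56748 genes of the count table: Fn1, Tnc, Postn, Thbs1, Thbs2, Thbs3, Sparc, Sned1 and Spp1. All 9 were found under 1 identifier each and all 9 were among the 16465 genes that passed the filter on low counts. They were selected on fold changes of these same libraries, which were already known, so their levels and differences are given as a description, with no p-value. The cells were of the established mouse line C3H/10T1/2 (spelled CH310T1/2 in the sample records), wild type in every group and labelled mesenchymal stem cells. After 1 h in suspension they were plated in low serum for 18 h on 12 kPa plates that carried a coat of 0.05 mg/ml type I collagen. In the col1 group the collagen had polymerized alone. In the col1-ACLP group it had polymerized with 30 nM recombinant ACLP, and in the col1-ACLP+SB group the cells on the same ACLP-bearing collagen also received 5 µM SB431542, an inhibitor of the TGFβ receptor kinase ALK5. Each group had 4 libraries, described as biological replicates of this 1 cell line, and no group received SB431542 on collagen without ACLP.

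Fibronectin, encoded by Fn1, is the adhesive glycoprotein that cells assemble into fibrils through RGD-binding integrins, and these fibrils serve as a scaffold for collagen and other matrix proteins. Matricellular proteins such as tenascin-C, periostin, the thrombospondins and SPARC sit in the same matrix but act mainly on the cell, by engaging integrins and other receptors, by tuning growth factors and by steering collagen assembly. They are low in most resting tissues and high in development, wound repair and fibrosis, where mesenchymal cells and activated fibroblasts are a main source.

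Totals per library ranged from 29246154 to 52201922 counts, and every member except Thbs2 and Thbs3 had at least 4044 counts in each library. Levels between libraries are given as CPM (counts scaled to the library total) after TMM scaling, and levels between genes as FPKM, the same values per gene length, with the lengths of the table. Col1 replicate 2 stood apart from the other libraries. It had 18556 genes with a count, against 20931 to 21285 in the other col1 libraries. Its score on the leading principal component was -86.7, against -11.1 to -8.97 in the other col1 libraries and 10.0 to 20.6 in the 8 libraries with ACLP. Leaving it out changed no member's side of the threshold. All 10 mesenchymal stromal markers examined passed the filter, although Nt5e stayed between 0 and 0.546 CPM. Their summed level was 33488 to 34672 CPM in the col1 libraries, 43422 to 52346 CPM with ACLP and 40085 to 45679 CPM with ACLP and SB431542. Col1a1 (11727 to 24445 CPM over all libraries) and Col1a2 (7195 to 12762 CPM) had the widest ranges in this sum. Col3a1 (8210 to 9338 CPM) and Vim (4711 to 5377 CPM) varied less. The sum therefore mainly follows Col1a1 and Col1a2 and does not describe each marker. Summed levels of 4 markers per type stayed between 4.30 and 9.85 CPM for endothelial cells, 5.32 and 10.7 for leukocytes, 1.88 and 3.97 for epithelium, 0 and 0.269 for adipocytes and 0 and 2.16 for skeletal muscle. Adgre1, Epcam, Myod1 and Myog had no count in any library. Mitochondrial transcripts took 2.39% to 2.98% of counts in the col1 libraries, 2.00% to 2.21% with ACLP and up to 2.88% with ACLP and SB431542, and the part of the marker levels and of these shares in the members' differences was not tested. In bulk RNA, fewer cells making a transcript and less of it per cell cannot be told apart.

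On col1-ACLP, Thbs1 and Postn were higher than on col1, each by about 1 unit on the log2 scale, and Sned1 and Spp1 were lower. Sned1 had the largest difference of the 9. Fn1, Sparc and Tnc were higher in every col1-ACLP library than in any col1 library, by less than the threshold for a call, and Thbs2 and Thbs3 overlapped between groups. A gene is called here when edgeR's adjusted p-value was under 0.05 and its log2 fold change was beyond 0.58 in size. By this rule 2 of the 9 members were called higher, against 2.61% of all genes tested, and 2 lower, against 2.36%, or 4.97% of all genes in either direction. The libraries of both groups did not overlap for 7 of 9 members, against 21.2% of all genes, with 5 above (10.9% of all genes) and 2 below (10.3%). With the adjusted p-value alone, 5 were higher, against 9.52% of all genes, and 2 lower, against 8.41%, or 17.9% in either direction. The choice of members used this contrast, so nothing is read from these counts. The median log2 fold change was 0.30 over the 9 members and -0.0099 over all genes.

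**Figure D1:**
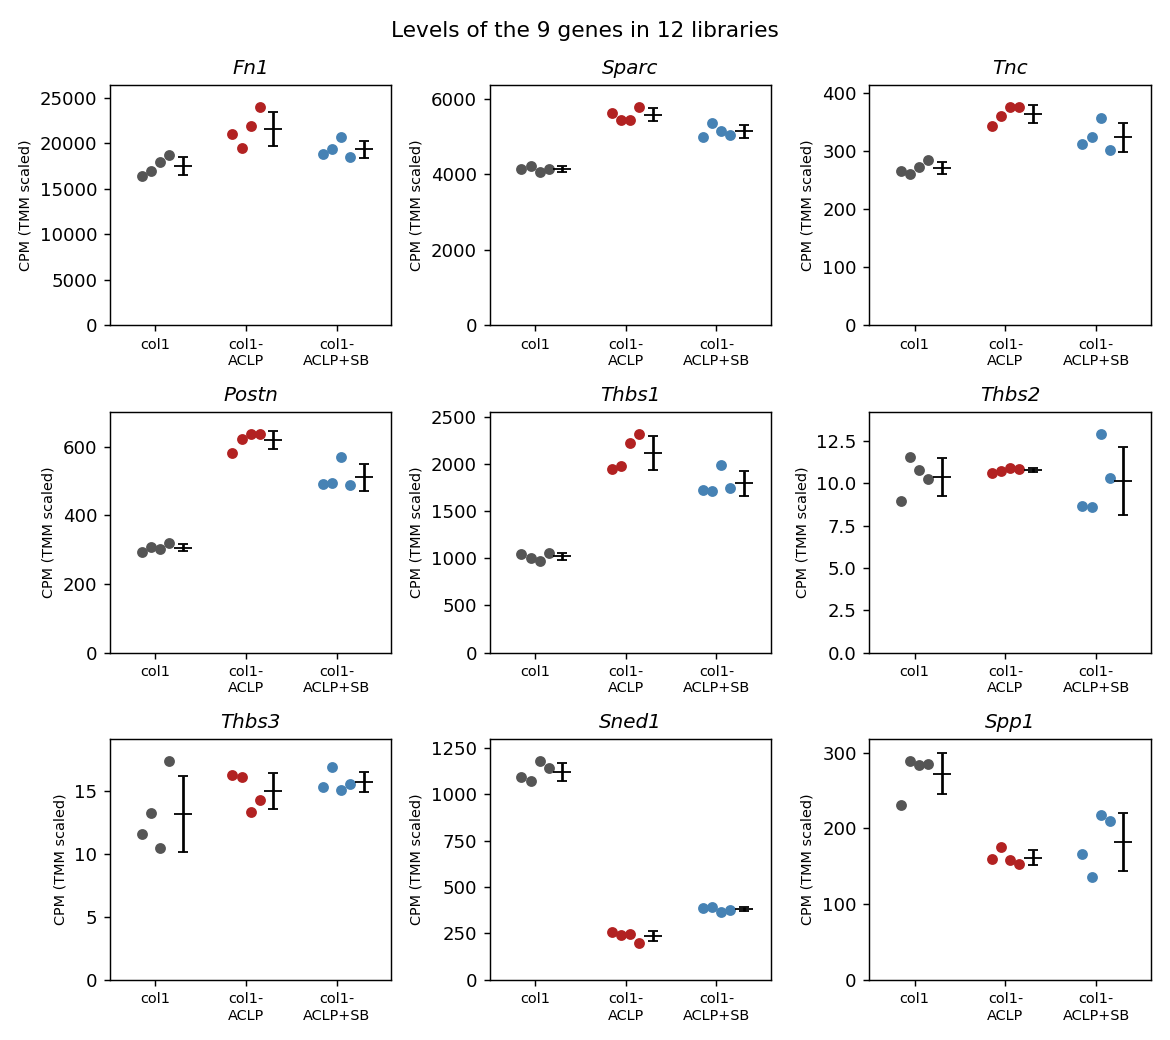
Level of each of the 9 genes in every library, in TMM-scaled CPM from 0 on separate vertical axes. Points are the 4 libraries of a group in replicate order, with the mean and SD beside them; Postn and Thbs1 stand apart from col1 in both ACLP groups, and Sned1 falls from 1072 to 1179 CPM on col1 to 199 to 256 CPM on col1-ACLP.

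The adhesive scaffold gene Fn1 (ENSMUSG00000026193, chromosome 1 from 71624679 to 71692359, minus strand, in GRCm39 like all positions of genes given here) carried more counts than any other gene in the table on the mean of the 12 libraries, 1.95% of the total, although Col1a1 reached 24445 CPM in its highest library, above the highest of Fn1. Col1 replicates 1 to 4 had 16423, 16949, 17945 and 18682 CPM. Col1-ACLP libraries had 21050, 19445, 21844 and 23994 CPM, and col1-ACLP+SB libraries had 18786, 19344, 20677 and 18451 CPM. All col1-ACLP libraries lay above all col1 libraries, while the libraries with SB431542 reached into the ranges of both other groups. The mean was 17500 ± 1009 CPM for col1, 21583 ± 1892 with ACLP and 19314 ± 980 with ACLP and SB431542 (SD, n = 4 in each). The log2 fold change was 0.30 (SE 0.0473) for col1-ACLP against col1, 0.14 (SE 0.0472) for col1-ACLP+SB against col1 and -0.16 (SE 0.0472) for col1-ACLP+SB against col1-ACLP, none of which was called. The second did not pass the adjusted p-value here but passed it under 8 of 20 alternatives, among them limma-voom and the replicate block. The last was -0.106 without col1-ACLP replicate 4, and passed the adjusted p-value without col1-ACLP replicate 2 (-0.208), without col1-ACLP+SB replicate 3 and with no filter on low counts.

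Sparc (ENSMUSG00000018593, chromosome 11 from 55285326 to 55314009, minus strand) encodes a collagen-binding matricellular protein that takes part in procollagen handling and fibril assembly. Col1 replicates 1 to 4 had 4126, 4225, 4055 and 4130 CPM, col1-ACLP replicates 5626, 5433, 5425 and 5782 CPM and col1-ACLP+SB replicates 4988, 5351, 5149 and 5026 CPM. The groups stood in 3 separate bands, with col1 lowest and col1-ACLP highest. The coefficient of variation within groups was 1.68% to 3.19%, so a difference of modest size still kept the libraries apart. Group means were 4134 ± 69.5, 5566 ± 171 and 5129 ± 163 CPM (SD, n = 4). The log2 fold change was 0.43 (SE 0.0322) with ACLP, 0.31 (SE 0.0322) with ACLP and SB431542, and -0.12 (SE 0.0322) between the ACLP groups, all under the size needed for a call.

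Tnc (ENSMUSG00000028364, chromosome 4 from 63878022 to 63965252, minus strand) encodes tenascin-C, a large matricellular protein that loosens cell adhesion to fibronectin. Levels on col1 were 265, 261, 272 and 284 CPM. On col1-ACLP they were 343, 360, 376 and 375 CPM, and on col1-ACLP+SB 311, 323, 357 and 301 CPM. Both ACLP groups lay above every col1 library and overlapped each other. Means were 270 ± 9.81, 363 ± 15.5 and 323 ± 24.3 CPM (SD, n = 4). The log2 fold change against col1 was 0.43 (SE 0.0517) with ACLP and 0.26 (SE 0.0517) with ACLP and SB431542, and the difference between the ACLP groups was -0.17 (SE 0.0516).

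Postn (ENSMUSG00000027750, chromosome 3 from 54268530 to 54298458, plus strand) encodes periostin, which binds collagen and fibronectin, promotes collagen crosslinking and signals through integrins. Its levels were 295, 309, 301 and 320 CPM in the col1 libraries and 583, 624, 637 and 636 CPM in the col1-ACLP libraries. With SB431542 they were 491, 495, 569 and 490 CPM. Every library of one group lay apart from every library of the others, with col1-ACLP+SB between col1 and col1-ACLP. Means were 306 ± 10.9, 620 ± 25.5 and 511 ± 38.7 CPM (SD, n = 4). Postn was called higher on col1-ACLP than on col1, with a log2 fold change of 1.02 (SE 0.0504), or 2.03-fold. It was also called higher on col1-ACLP+SB, at 0.74 (SE 0.0502), or 1.67-fold. Between the ACLP groups the log2 fold change was -0.28 (SE 0.0499), past the adjusted p-value but not the size threshold.

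Thbs1 (ENSMUSG00000040152, chromosome 2 from 117942357 to 117957614, plus strand) encodes thrombospondin-1, a ligand of CD36, CD47 and integrins that also activates latent TGFβ. Col1 replicates 1 to 4 had 1042, 1007, 974 and 1062 CPM. Col1-ACLP libraries had 1946, 1977, 2226 and 2320 CPM, and col1-ACLP+SB libraries had 1726, 1715, 1990 and 1751 CPM. Both ACLP groups lay above col1, and replicate 3 with SB431542 was higher than the col1-ACLP replicates 1 and 2. With SB431542 the mean was 1796 ± 130 CPM (SD, n = 4). The log2 fold change was 1.05 (SE 0.0539), or 2.07-fold, for col1-ACLP against col1 and 0.81 (SE 0.0536), or 1.76-fold, with SB431542, and both were called. The difference between the ACLP groups, -0.24 (SE 0.0533), was past the adjusted p-value and under the size threshold. It no longer passed the adjusted p-value without any 1 of 5 libraries (col1-ACLP replicates 3 and 4 and col1-ACLP+SB replicates 1, 2 and 4), where it was -0.19 to -0.23.

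The other thrombospondins were expressed at a low level. Thbs2 (ENSMUSG00000023885, chromosome 17 from 14885762 to 14914497, minus strand) encodes a close relative of thrombospondin-1 that lacks the TGFβ-activating sequence and restrains angiogenesis. Col1 replicates had 8.93, 11.5, 10.8 and 10.3 CPM, col1-ACLP replicates 10.6, 10.7, 10.9 and 10.8 CPM and col1-ACLP+SB replicates 8.66, 8.59, 12.9 and 10.3 CPM, from 256 to 669 counts per library. All 3 groups overlapped, with log2 fold changes of 0.053 (SE 0.137), -0.031 (SE 0.137) and -0.084 (SE 0.137) for col1-ACLP against col1, col1-ACLP+SB against col1 and col1-ACLP+SB against col1-ACLP. The sign of the first 2 turned when single libraries were left out, and the third ranged from -0.229 (without col1-ACLP+SB replicate 3) to -0.0143 (without col1-ACLP+SB replicate 2). Thbs3 (ENSMUSG00000028047, chromosome 3 from 89122487 to 89134144, plus strand) belongs to the thrombospondins found in cartilage and bone. Its levels were 11.6, 13.3, 10.5 and 17.4 CPM in col1 libraries, 16.3, 16.1, 13.3 and 14.3 CPM in col1-ACLP libraries and 15.4, 16.9, 15.1 and 15.6 CPM in those with SB431542. Col1 replicate 4 was the highest of the 12 libraries and the other col1 libraries were low, so the groups overlapped in every pairing. The log2 fold changes were 0.18 (SE 0.130), 0.25 (SE 0.130) and 0.067 (SE 0.130), none past the adjusted p-value. Over the alternatives the first ranged from 0.0912 (without col1 replicate 3) to 0.349 (without col1 replicate 4) and the second from 0.158 to 0.415 with the same libraries left out, and the second passed the adjusted p-value only without col1 replicate 4. The third ranged from 0.0136 (without col1-ACLP replicate 3) to 0.11 (without col1-ACLP replicate 1). Thbs3 overlaps Mtx1 on the other strand, which had 442 to 897 counts per library, and since the strand setting of the counting is not given, reads of the shared stretch cannot be assigned with certainty. Counted per length, Thbs1 held 97.6% of the summed FPKM of the 3 thrombospondin genes without ACLP, 98.7% with ACLP and 98.4% with ACLP and SB431542.

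Sned1 (ENSMUSG00000047793, chromosome 1 from 93163563 to 93228787, plus strand) encodes a large secreted matrix glycoprotein with fibronectin type III and EGF-like domains that supports cell adhesion. Col1 replicates 1 to 4 had 1093, 1072, 1179 and 1139 CPM. Col1-ACLP libraries had 256, 244, 249 and 199 CPM, and col1-ACLP+SB libraries had 389, 392, 366 and 376 CPM. The 3 groups did not overlap, with col1 far above both ACLP groups. Sned1 was called lower on col1-ACLP than on col1, with a log2 fold change of -2.24 (SE 0.0599), or 4.73-fold lower. On col1-ACLP+SB it was called lower than on col1 at -1.56 (SE 0.0584), or 2.94-fold, and it was called higher than on col1-ACLP at 0.68 (SE 0.0578), or 1.61-fold. Mterf4 overlaps it on the other strand with 326 to 529 counts per library, against 5616 to 49020 for Sned1.

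Spp1 (ENSMUSG00000029304, chromosome 5 from 104582984 to 104588916, plus strand) encodes osteopontin, a secreted phosphoprotein that binds RGD-binding integrins and CD44 and regulates mineralization. Its levels were 231, 289, 284 and 286 CPM in the col1 libraries and 159, 175, 158 and 152 CPM in the col1-ACLP libraries. With SB431542 they were 166, 136, 218 and 210 CPM, the widest spread of any member group but Thbs3 on col1 (coefficient of variation 21.1% and 22.9%). All libraries of both ACLP groups lay below all col1 libraries, and the ACLP groups overlapped. Means were 272 ± 27.5, 161 ± 9.94 and 182 ± 38.5 CPM (SD, n = 4). Spp1 was called lower on col1-ACLP, with a log2 fold change of -0.76 (SE 0.0990), or 1.69-fold. On col1-ACLP+SB it was -0.578 (SE 0.0985) against col1, just short of the size threshold of 0.58, so its call there turned on small choices of processing. Between the ACLP groups it was 0.18 (SE 0.0989), with overlapping libraries, and ranged from 0.0788 (without col1-ACLP+SB replicate 3) to 0.294 (without col1-ACLP+SB replicate 2).

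**Figure D2:**
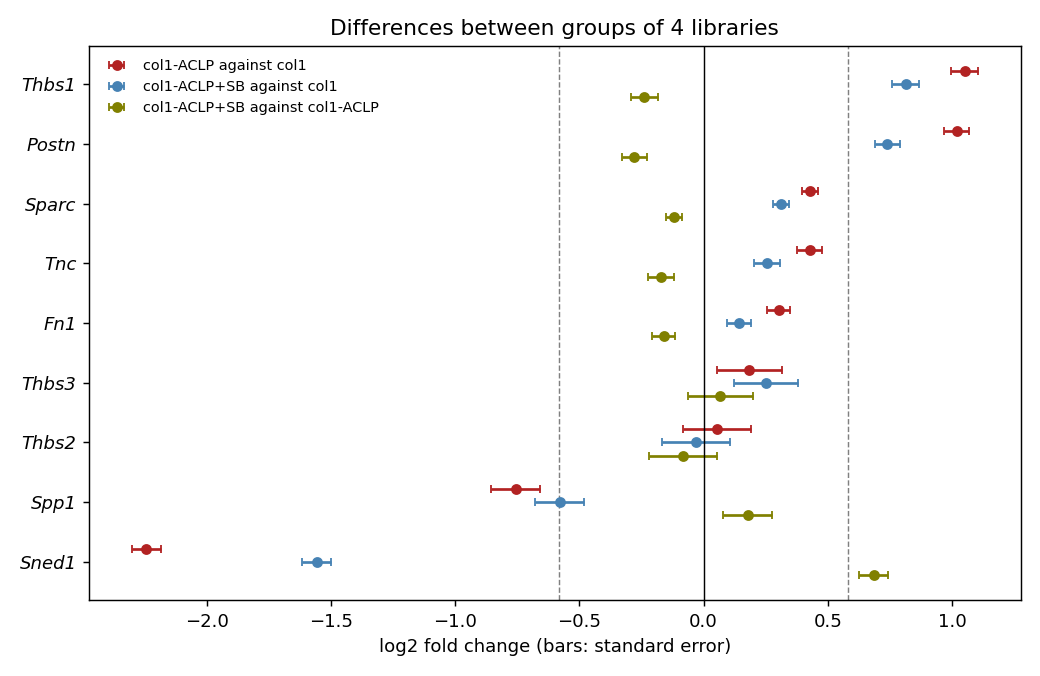
Log2 fold change of each of the 9 genes in 3 comparisons of 4 libraries with 4, with standard errors as bars and the size threshold of 0.58 as dashed lines. In the comparisons with col1, Thbs1 (1.05 and 0.81) and Postn (1.02 and 0.74) lie past the upper line and Sned1 (-2.24 and -1.56) past the lower one in both, and Spp1 past it on col1-ACLP (-0.76), while between the ACLP groups Sned1 at 0.68 lies past a line and the other 8 genes do not.

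The promoters of Postn and Sned1 are shown because these members differed in opposite directions and because the start site of the RefSeq window lay within 100 bases of the gene start in the count table. The windows are from RefSeq (GRCm38.p6), which held 10 windows for 7 of the 9 members, and each was placed on GRCm39 by an exact match to the genome. The Postn window is chr3:54268278-54268527 on the plus strand, of which 27 bases lie in a Postn exon of the GENCODE annotation and others in exons of the noncoding gene Gm31095. The Sned1 stretch is chr1:93163369-93163557 on the plus strand and ends where the Sned1 exon begins. Capitals mark the matches found by a search of the 250 bases before the start, which are TATAAA in Postn (26 to 21 bases before the start) and GGGCGG, read as CCGCCC from the other strand, in Sned1 (119 to 114 bases before it).
Postn: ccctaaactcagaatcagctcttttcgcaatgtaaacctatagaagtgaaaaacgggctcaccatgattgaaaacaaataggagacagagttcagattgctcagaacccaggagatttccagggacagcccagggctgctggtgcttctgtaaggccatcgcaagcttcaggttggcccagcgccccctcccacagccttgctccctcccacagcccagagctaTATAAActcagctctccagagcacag
Sned1: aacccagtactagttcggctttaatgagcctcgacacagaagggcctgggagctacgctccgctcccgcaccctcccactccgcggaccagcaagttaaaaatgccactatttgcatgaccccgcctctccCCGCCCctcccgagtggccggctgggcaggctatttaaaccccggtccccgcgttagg

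Other motifs were searched on both strands in the same 250 bases of all 10 member windows, and TATAAA on the gene's strand alone. The CArG box bound by SRF, the AP-1 sequence TGANTCA and the TEAD sequence GGAATG had no match in any of them. These are held by 1.47%, 6.75% and 12.6% of all 32851 RefSeq windows. The SMAD sequence CAGACA, present in 17.1% of all windows, matched in windows of Tnc, Spp1, Sparc and Thbs2. TATAAA, present in 7.59% of windows, also matched in Tnc and Spp1, and GGGCGG, present in 32.7%, in Tnc and Thbs3. Several of these windows lie inside exons of their own gene in the GENCODE annotation, with 250 of 250 bases for Sparc and for the Spp1 window with matches and 191 and 250 for the Tnc windows, and the Sparc start site lies 3103 bases from the gene start of the table. The 2 Tnc windows are offset by 79 bases and share their TATAAA and GGGCGG matches, which are counted once in each. Within a window, no match overlapped another. A match describes letters in the window, and its absence says nothing of the factor.

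The order of the members by level per gene length was set on col1 by Fn1 with 1498 ± 86.4 FPKM and Sparc with 1091 ± 18.4 FPKM (SD, n = 4). Thbs1 (168 ± 6.39 FPKM) and Spp1 (165 ± 16.7 FPKM) came next and overlapped, followed by Sned1 (118 ± 5.03 FPKM). Postn (35.2 ± 1.25 FPKM) and Tnc (34.8 ± 1.26 FPKM) overlapped, and Thbs3 (2.74 ± 0.628 FPKM) and Thbs2 (1.48 ± 0.157 FPKM) were lowest. On col1-ACLP the order became Fn1, Sparc, Thbs1, Spp1, Postn, Tnc, Sned1, Thbs3 and Thbs2, and no neighbours overlapped. Sned1 had moved from above Postn and Tnc, at 118 FPKM, to below both, at 25.0 ± 2.70 FPKM against 71.3 ± 2.93 FPKM for Postn and 46.8 ± 2.00 FPKM for Tnc. Thbs1, level with Spp1 on col1, was at 349 ± 30.4 FPKM against 97.8 ± 6.03 FPKM for Spp1. The order on col1-ACLP+SB was that of col1-ACLP, except that Tnc (41.5 ± 3.13 FPKM) and Sned1 (40.1 ± 1.24 FPKM) overlapped. The 9 genes took 2.51% ± 0.103 of all counts without ACLP, 3.01% ± 0.175 with ACLP and 2.77% ± 0.105 with ACLP and SB431542 (SD, n = 4), most of it from Fn1 and Sparc.

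**Figure D3:**
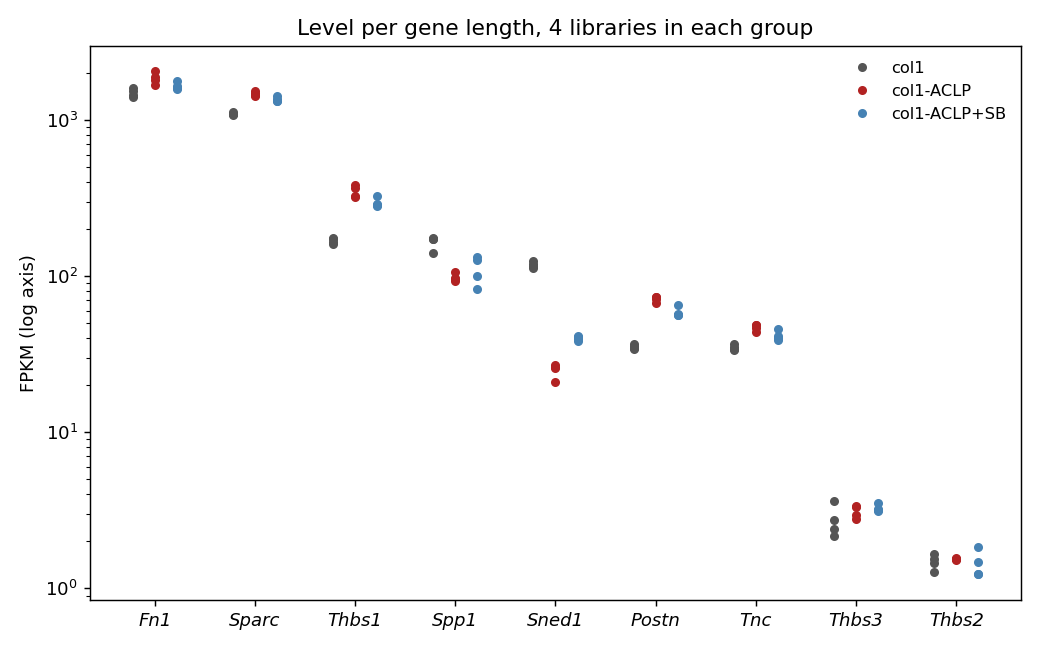
Level per gene length (FPKM, log axis) of the 9 genes in the 4 libraries of each group, with genes in the order of their mean on col1. Sned1 drops from 118 FPKM on col1 to 25.0 FPKM on col1-ACLP, below Tnc and Postn, while Thbs2 and Thbs3 stay near 1.5 and 3 FPKM in all groups.

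With SB431542 on ACLP-bearing collagen, the members kept the direction they had without it wherever the col1-ACLP difference was called. Of the 9, 2 were called higher than on col1 (Thbs1 and Postn), against 1.27% of all genes, and 1 lower (Sned1), against 1.01%, or 2.28% of all genes in either direction. The libraries did not overlap with col1 for 6 of 9, against 13.0% of all genes, with 4 above (6.70%) and 2 below (6.32%). With the adjusted p-value alone, 4 were higher, against 4.60% of all genes, and 2 lower, against 4.54%, or 9.13% in either direction. These counts rest on the same col1 libraries as the comparison without the inhibitor, and members were chosen with both results known. Set side by side, the log2 fold change with SB431542 was 77.4% of that without it for Thbs1, 76.5% for Spp1, 72.6% for Postn, 72.5% for Sparc, 69.5% for Sned1, 60.1% for Tnc and 47.0% for Fn1. The estimates of Thbs3 (0.25 with and 0.18 without) and Thbs2 (-0.031 and 0.053) did not follow this order, and neither passed the adjusted p-value. The median log2 fold change was 0.25 over the members and 0.0046 over all genes.

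The direct comparison of the ACLP groups asks what the inhibitor changed in cells on ACLP. Members were chosen with earlier results of these data known, so nothing is read from the counts of members given here. Sned1 was the 1 member called, higher with SB431542 by 1.61-fold, against 0.0850% of all genes called higher, 0.0425% called lower and 0.128% in either direction. The libraries did not overlap for 3 of 9 members, against 8.17% of all genes, with Sned1 above (3.65%) and Postn and Sparc below (4.52%). With the adjusted p-value alone, Sned1 was higher, against 0.571% of all genes, and Postn and Thbs1 were lower, against 0.905%, or 1.48% in either direction. Postn and Sned1 passed it under all 20 alternatives and Thbs1 under 15 of 20, while Fn1, Sparc and Tnc, not past it here, passed it under 3, 3 and 2. The 5 members that were higher on col1-ACLP than on col1 with the adjusted p-value had negative estimates here, from -0.12 for Sparc to -0.28 for Postn, and Sned1 and Spp1 had positive ones. Thbs2 was at -0.084 and Thbs3 at 0.067. The col1-ACLP libraries enter both comparisons, and these signs are therefore not independent. The median was -0.12 over the members and 0.0049 over all genes.

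Members differed in how closely they moved together across the 12 libraries, given here as a description because libraries of a group share their treatment. In log2 CPM, Postn and Thbs1 had Pearson's r of 0.992 over all libraries and 0.779 once the group means were removed (n = 12). Tnc and Postn had 0.962 and 0.898, Postn and Sparc 0.974 and 0.0773. Sned1 ran opposite to Postn at -0.989 over all libraries and -0.363 within groups. Spp1 had its highest value within groups with Thbs2, at 0.833, whereas over all libraries this pair had 0.335. For each called member, the genes of most similar pattern were sought among 9150 tested genes outside the 9 members with a mean of at least 10 CPM. The nearest of these to Postn were Loxl4 (r = 0.994), P4hb (0.992) and Col11a1 (0.990), a lysyl oxidase-like enzyme, a subunit of collagen prolyl hydroxylase and a fibrillar collagen chain. The nearest of these to Thbs1 were Loxl4 (0.992), Col11a1 (0.991) and Fbln5 (0.988). Loxl4 had means of 72.9, 183 and 143 CPM in the 3 groups, in the order col1, ACLP alone and ACLP with SB431542, and Col11a1 had 982, 2125 and 1678 CPM. The nearest of these to Sned1 were Plin4 (0.990), a lipid droplet coat protein with 348, 166 and 200 CPM, Ampd3 (0.987) and H2-T23 (0.986). Spp1 had less similar neighbours, with Crebrf at 0.961, Ank at 0.959 and Nek6 at 0.957.

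A list of 61 related matrix glycoprotein genes, written by gene family with earlier results of these data known, was read beside the members. Of these, 48 passed the filter. On col1-ACLP 3 rose (2.61% of all genes did) and 7 fell (2.36%) against col1, 20.8% of those tested against 4.97% of all genes, and the median log2 fold change was -0.098. With the adjusted p-value alone, 12 were higher (9.52% of all genes) and 12 lower (8.41%). Fbln5, an elastic fibre glycoprotein with an RGD sequence, rose from 638 ± 7.10 to 1100 ± 26.7 CPM (SD, n = 4), a log2 fold change of 0.78 (SE 0.0377, adjusted p = 5.69e-14 by edgeR). It was at 971 ± 28.7 CPM with SB431542. Slit2, a secreted guidance protein, rose from 135 ± 3.68 to 215 ± 18.4 CPM (0.67, SE 0.0728, adjusted p = 1.12e-07 by edgeR) and was at 161 ± 21.6 CPM with the inhibitor, where it overlapped col1. Olfml3, a secreted olfactomedin-like protein, rose from 8.25 ± 2.02 to 15.1 ± 1.99 CPM (0.87, SE 0.150, adjusted p = 0.000114 by edgeR).

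Among the 7 that fell, Olfml2b went from 11.7 ± 2.77 to 3.79 ± 0.678 CPM (-1.63, SE 0.181, adjusted p = 1.79e-07 by edgeR). Efemp1, or fibulin-3, had 1.02 to 1.60 CPM in the col1 libraries and 0 to 0.359 CPM with ACLP (-2.85, SE 0.693, adjusted p = 0.00405 by edgeR), from 215 counts over 4 libraries against 25. Dpt, which encodes the collagen-binding protein dermatopontin, fell from 2.86 ± 0.395 to 0.911 ± 0.476 CPM (-1.65, SE 0.411, adjusted p = 0.00483 by edgeR). Dmp1, a relative of osteopontin in the family of secreted integrin-binding phosphoproteins, fell from 9.65 ± 0.387 to 4.37 ± 0.742 CPM (-1.14, SE 0.164, adjusted p = 9.77e-06 by edgeR). The remaining 3, Mgp, Smoc2 and Vwa1, fall outside the naming rule and are named after their values were seen. Of the families closest to the members, 1 of 5 tested relatives of SPARC fell, Smoc2, at -0.61 (SE 0.0637), against 2.36% of all genes called lower. Another relative, Fstl1, also named after its values were seen, was higher without being called. It was at 1998 ± 44.0 and 2629 ± 41.9 CPM (0.40, SE 0.0360, adjusted p = 6.13e-09 by edgeR). The periostin paralogue Tgfbi was at 3.37 ± 0.847 and 3.12 ± 0.206 CPM and was not called. On col1-ACLP no call against col1 was made among 2 other tenascins or 4 thrombospondin and matrilin genes tested by edgeR, DESeq2 or limma-voom, with 0 and 3 of them under an unadjusted p-value of 0.05 by edgeR, against 28.3% of all genes.

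**Figure D4:**
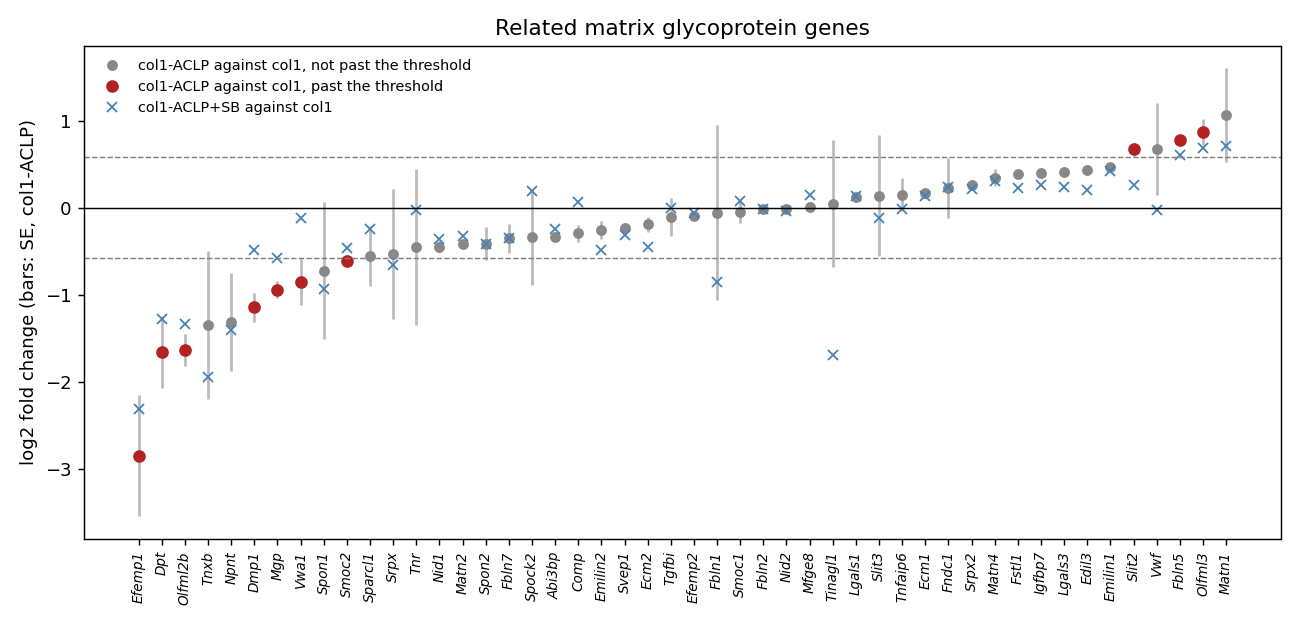
Log2 fold change against col1 of the 48 tested genes of related matrix glycoproteins, ordered by the value on col1-ACLP (circles, with SE as bars and called genes in red), with the value on col1-ACLP+SB as crosses and the size threshold of 0.58 as dashed lines. Called genes run from Efemp1 at -2.85 to Olfml3 at 0.87, with 7 below and 3 above.

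On col1-ACLP+SB, 2 of the 48 related genes rose (1.27% of all genes did) and 3 fell (1.01%) against col1. Tnxb, a tenascin under 1 CPM on average in each group, was called lower there by limma-voom alone (-3.64). Those that rose were Olfml3 (0.69, SE 0.150, adjusted p = 0.00258 by edgeR) and Fbln5 (0.61, SE 0.0376, adjusted p = 1.54e-11 by edgeR). Those that fell were Efemp1 (-2.32, SE 0.668, adjusted p = 0.0267), Olfml2b (-1.34, SE 0.178, adjusted p = 6.03e-06) and Dpt (-1.27, SE 0.400, adjusted p = 0.0453), by the same edgeR test. Only the calls of Fbln5 and Olfml2b held without each library in turn, and over all alternatives Fbln5 ran down to 0.581, just past the threshold of 0.58. The call of Olfml3 was lost without col1 replicate 2 (0.56), that of Efemp1 without any 1 of 5 libraries (col1 replicates 3 and 4 and col1-ACLP+SB replicates 2, 3 and 4, adjusted p up to 0.0906) and that of Dpt without any 1 of 7 (the 4 on col1 and col1-ACLP+SB replicates 1, 2 and 4, adjusted p up to 0.121). Between the ACLP groups, 1 of the 48 was called, against 0.128% of all genes. Dmp1 was at 6.92 ± 1.38 CPM with SB431542 and 4.37 ± 0.742 CPM without it (0.66, SE 0.165, adjusted p = 0.0432 by edgeR), with all 4 libraries above. This call was lost without any 1 of 8 libraries (col1 replicates 1, 3 and 4, col1-ACLP replicates 1, 3 and 4, and col1-ACLP+SB replicates 2 and 4) and under 2 other alternatives, with adjusted p from 0.00914 to 0.186 by edgeR and the other tools.

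Receptors for these proteins were listed in the same way. Of 23 listed genes, 20 were tested, and 0 were called by edgeR, DESeq2 or limma-voom between col1-ACLP and col1, against 4.97% of all genes by edgeR, with 13 under an unadjusted p-value of 0.05 by edgeR, against 28.3% of all genes. With the adjusted p-value alone, 6 were higher (9.52% of all genes) and 3 lower (8.41%), with log2 fold changes under 0.58 in size. Itgb3, a subunit of the integrin that binds fibronectin, osteopontin and thrombospondin-1, was at 52.9 ± 3.34 CPM without ACLP and 76.8 ± 5.28 CPM with it (0.54, SE 0.0667, adjusted p = 1.06e-06 by edgeR). Its partner Itgav was at 234 ± 9.90 and 300 ± 7.18 CPM (0.36, SE 0.0568, adjusted p = 4.07e-05 by edgeR), and Itgb1, the common subunit of fibronectin and collagen receptors, at 944 ± 27.4 and 1068 ± 27.7 CPM (0.18, SE 0.0412, adjusted p = 0.00261 by edgeR). The 3 that were lower were Egfr, which also binds EGF-like repeats of tenascin-C (109 ± 2.18 and 74.7 ± 5.00 CPM, -0.54, SE 0.0562, adjusted p = 5.35e-08 by edgeR), Tlr4 (-0.35, SE 0.0842, adjusted p = 0.00402 by edgeR) and the collagen receptor Ddr2 (-0.25, SE 0.0470, adjusted p = 0.000383 by edgeR). The other 3 higher ones were Itgb5 (0.34), Calr (0.28) and Anxa2 (0.30). The osteopontin receptor Cd44 (80.7 ± 5.39 and 72.5 ± 1.05 CPM) and the thrombospondin receptor Cd47 (133 ± 5.87 and 124 ± 5.55 CPM) overlapped between groups, and Cd36 was too low to test. With SB431542, Itgb3 was at 67.8 ± 4.16 CPM (0.36 against col1, SE 0.0666, adjusted p = 0.000490 by edgeR), while Itgav (0.15, SE 0.0568, adjusted p = 0.121 by edgeR) and Itgb1 (0.088, SE 0.0412, adjusted p = 0.230 by edgeR) did not pass the test. The other 6 passed the adjusted p-value there too, in the direction they had without the inhibitor. On col1-ACLP+SB, Itga4 was called lower than on col1, at 1.53 ± 0.620 against 3.29 ± 1.09 CPM (-1.09, SE 0.316, adjusted p = 0.0278 by edgeR), and this call was lost without any 1 of 4 libraries (col1 replicates 1 and 2 and col1-ACLP+SB replicates 1 and 2, adjusted p up to 0.124) and with limma-voom. It was the 1 receptor gene called there, against 1.01% of all genes called lower and 2.28% in either direction, with 12 of 20 under an unadjusted p-value of 0.05 by edgeR, against 19.9% of all genes. Between the ACLP groups 0 receptor genes were called by edgeR, DESeq2 or limma-voom, against 0.128% of all genes by edgeR, with 6 under an unadjusted p-value of 0.05 by edgeR, against 12.8% of all genes. The receptors described here were named after their values were seen.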

How the data were processed

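Poly(A) RNA of 12 libraries, 4 each of col1, col1-ACLP and col1-ACLP+SB, was sequenced as paired-end reads. The authors mapped the reads with HISAT2 to GRCm39 (the labels list mm10, and the coordinates in the table are those of GRCm39) and deposited raw counts per gene without normalization. The counting tool and its strand setting are not given in the sources used here. All columns of counts were used (0 columns were left unmapped). Gene lengths came from the same table.

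Counts were fitted over all 12 libraries in R 4.3.3 with edgeR 4.0.16 (filterByExpr, TMM, glmQLFit and glmQLFTest, group as the only term, two-sided), with Benjamini-Hochberg adjustment over the 16465 genes tested. Calls needed an adjusted p-value under 0.05 and a log2 fold change beyond 0.58, the threshold of the study. The procedure was tested on simulated counts with the same dispersion for every gene and changes well beyond the size threshold. Calls near the threshold were not probed by it. Members, lists and tests were chosen with earlier results of these data known. Named genes were the 9 members, the 4 called genes of each list with the largest change in each direction on col1-ACLP, list genes called between the ACLP groups, and for each called member the 3 genes with the highest Pearson's r in log2 CPM (prior count 2).

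Library totals were 29246154 to 52201922 counts. For the members with at least 4044 counts in each library, counting error is small beside the spread between replicates (square root of the common dispersion 0.153). It is not small for genes with few counts, such as Efemp1 (0 to 13 counts per library on col1-ACLP) and Dpt (10 to 42). Reads carry no molecular identifiers, and p-values measure only the spread between these libraries of 1 cell line. Replicates differed by more than repeat counts of the same library would (chi-square per degree of freedom 7.49 to 20.1). Separately prepared libraries would do so in any case, and all 12 were kept. Alternatives were edgeR's RLE factors, library size alone, no filter, a mean of at least 10 counts, only the groups compared, a replicate block, DESeq2 1.42.0, limma-voom (limma 3.58.1), the adjusted p-value alone, TPM in place of FPKM, and each library left out.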

Additional observations from a re-analysis of the deposited data

Results flagged for a closer look

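Among 27 checks of a gene in a group of 4 libraries, 3 found a library far from the others by Dixon's criterion, where chance flags about 1 in 20. With SB431542 on ACLP-bearing collagen, replicate 3 was far above the other libraries both for Postn, at 569 CPM, and for Thbs1, at 1990 CPM. This library had the largest total, 52201922 counts. Without a flag, it was also the highest of its group for Fn1, Tnc, Thbs2 and Spp1 and the lowest for Sned1, but not the highest for Sparc or Thbs3. On col1, replicate 1 was far below the other libraries for Spp1, at 231 CPM. Leaving out these libraries kept the calls of Postn and Thbs1, while Spp1 was called lower on col1-ACLP+SB than on col1 without col1 replicate 1 (-0.65).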

How the results depend on the processing

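Over 540 repeats of the members' log2 fold changes under the alternatives, 526 kept their direction and their side of the threshold. Another 10 concerned Spp1 on col1-ACLP+SB against col1, which passed the size threshold in them at -0.58 to -0.68. These were RLE factors, library size alone, the 2 groups compared, the replicate block, DESeq2, limma-voom and 4 libraries left out (col1 replicate 1, col1-ACLP replicate 2, col1-ACLP+SB replicates 3 and 4), so that 4 members were called there. The last 4 were sign changes of Thbs2 near 0, to -0.0112 on col1-ACLP without col1 replicate 1 (highest value 0.11), and on col1-ACLP+SB to 0.026, 0.0389 and 0.0407 (lowest value -0.174) without col1 replicate 2 and col1-ACLP+SB replicates 1 and 2. Dpt changed sign between the ACLP groups, to -0.0342, without col1-ACLP+SB replicate 3, and ran up to 0.596 over the other libraries left out and to 0.653 with limma-voom. Of the other named genes' repeats, 409 of 439 kept direction and side.

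Counts of calls are given for col1-ACLP and col1-ACLP+SB against col1, then between the ACLP groups. With the adjusted p-value alone they were 7, 6 and 3 members, 24, 20 and 5 related genes, 9 and 9 receptors in the comparisons with col1, and 2953, 1504 and 243 of all genes. Between the ACLP groups, 0 related genes were called with only the 2 groups compared or with limma-voom, and 46 of all genes with no filter and 46 with DESeq2, against 21. Library size alone called 1 receptor on col1-ACLP, and limma-voom called 0 on col1-ACLP+SB. With each library left out, the counts ran from 4 to 4, 3 to 4 and 1 to 1 for members, 8 to 11, 3 to 5 and 0 to 1 for related genes, 0 to 1 (1 without col1-ACLP replicate 1 or 3), 0 to 1 and 0 to 0 for receptors, and 723 to 839, 343 to 384 and 10 (without col1-ACLP replicate 4) to 29 (without col1 replicate 2) for all genes. Same-numbered libraries deviated with correlations of -0.0372 to 0.036. Libraries of different numbers were not compared, so these values do not settle whether the numbers pair libraries. The replicate block called 4, 4 and 1 members and 785, 357 and 17 of all genes. The order by FPKM was the same with TPM. Causes were not tested.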
